A study of Rattus norvegicus with 18 samples.

Results

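The Toll-like receptor genes Tlr1, Tlr2, Tlr3, Tlr4, Tlr5, Tlr7, Tlr8 and Tlr9, the co-receptor gene Cd14 and the adaptor gene Myd88 were examined in synovial macrophages of rats with post-traumatic osteoarthritis (OA) or sham surgery. These 10 genes were taken by their symbol from the 30643 genes of the deposited expression tables, and all 10 passed the filter on low values. Wild type male Sprague Dawley rats, aged 12 weeks, had the anterior cruciate ligament and the medial meniscotibial ligament of a knee cut to destabilize the joint (OA), or the joint capsule opened with no ligament cut (sham). Synovial cells were collected 4 or 12 weeks later and sorted magnetically for CD11b/c, a surface protein of myeloid cells. Ribosomal RNA was depleted from the total RNA before sequencing. There were 5 OA and 5 sham libraries at 4 weeks, each from a pool of 4 rats, and 4 OA and 4 sham libraries at 12 weeks, each from a pool of 3 rats.

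Toll-like receptors recognize microbial molecules, and molecules released from damaged tissue, through an outer domain of leucine-rich repeats. Those at the cell surface bind mainly lipids and proteins, whereas those in endosomes bind nucleic acids. On binding, the inner domain recruits adaptors, of which Myd88 serves every receptor examined here except Tlr3, and the signal ends in NF-kappa-B and interferon regulatory factors and the transcription of cytokine genes. In the synovium, macrophages are a main cell type that carries these receptors.

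Library totals were between 4662344 and 18080503 reads. Markers of monocytes and macrophages were read in every library, and their summed level was 106011 to 134864 normalized reads at 4 weeks and 121853 to 176732 at 12 weeks. Fibroblast markers were also abundant, at 46196 to 110066 normalized reads summed at 4 weeks and 54987 to 107313 at 12 weeks. Several libraries stood apart. Sham replicate 3 at 4 weeks had 4662344 reads and the lowest level of the 5 sham libraries for 42.0% of all genes. Sham replicate 3 at 12 weeks had the fewest reads of that week, 10976114, the lowest macrophage sum (121853), the highest fibroblast sum of the sham group (86349), and the lowest level of the 4 sham libraries for 32.7% of all genes. Each was the lowest library of its week for 7 of the 10 genes examined here. The comparisons of OA with sham that rest on either are therefore given with and without that library. OA replicate 5 at 4 weeks was the lowest OA library for 7 of the 10 genes, and for 24.7% of all genes. Neutrophil markers, 10 of 10 in the tables and none of them at 0, summed to 13863 and 15862 normalized reads in OA replicates 1 and 3 at 4 weeks, against 1495 to 6048 in the other libraries of that week. OA replicate 3 was the highest OA library for 6 of the 10 genes, and for 26.4% of all genes. OA replicate 1 was the highest OA library for 1 of the 10 genes and the lowest for 1, and for 15.1% and 20.6% of all genes.

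The promoters of the 3 genes that separated OA from sham at 12 weeks are shown first, as the 250 bases before the start of the gene in RefSeq, 5′ to 3′ on the strand of the gene. Capitals mark matches, on either strand, to the motifs searched. These were the NF-kappa-B motif (kappa-B), GAGGAA for the myeloid factor PU.1, TGANTCA for AP-1, TGACGTCA for CREB-family factors, the GC box GGGCGG and the TATA box TATAAA. The build is GRCr8, and the positions are chr2:171504558-171504807 for Tlr2, chr18:28611159-28611408 for Cd14 and chr8:127956231-127956480 for Myd88, each on the minus strand.
Tlr2: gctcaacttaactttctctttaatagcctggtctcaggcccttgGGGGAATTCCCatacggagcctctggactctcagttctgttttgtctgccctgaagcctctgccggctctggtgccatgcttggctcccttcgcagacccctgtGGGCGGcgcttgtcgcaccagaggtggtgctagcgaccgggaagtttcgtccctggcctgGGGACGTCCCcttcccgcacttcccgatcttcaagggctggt
Cd14: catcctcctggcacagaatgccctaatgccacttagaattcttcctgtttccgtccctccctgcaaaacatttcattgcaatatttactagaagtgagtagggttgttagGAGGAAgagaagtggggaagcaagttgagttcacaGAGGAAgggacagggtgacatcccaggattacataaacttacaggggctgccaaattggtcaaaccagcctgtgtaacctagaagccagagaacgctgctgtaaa
Myd88: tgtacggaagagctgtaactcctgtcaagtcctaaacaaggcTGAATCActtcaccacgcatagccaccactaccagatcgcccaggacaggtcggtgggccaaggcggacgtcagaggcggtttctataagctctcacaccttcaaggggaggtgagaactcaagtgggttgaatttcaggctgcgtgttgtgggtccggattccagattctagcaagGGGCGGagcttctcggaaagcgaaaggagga

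Tlr2 was the only one of the 10 genes with kappa-B matches in this window. Its 3 matches began 206, 205 and 42 bases before the gene, and the first pair overlap by all but 1 base. The share of all 33469 RefSeq rat promoters with a match was 6.33%. Cd14 had 2 GAGGAA matches, 140 and 105 bases before the gene. GAGGAA was also in the windows of Tlr3, Tlr4, Tlr7, Tlr8 and Tlr9, 6 of the 10 genes against 23.3% of all promoters. Myd88 had TGANTCA, found in 6.34% of all promoters and also in Tlr9, and a GC box, found in 30.5% and also in Tlr2. TATAAA was in Tlr1 and Tlr8 (12.9% of all promoters), and TGACGTCA was in none of the 10 (1.59%). A match describes the letters of the window, and binding was not measured.

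At 4 and 12 weeks, OA was compared with sham by limma on log2(normalized reads + 1), for every gene that averaged 10 or more normalized reads. Called genes had an adjusted p under 0.05 and an absolute log2 fold change of 0.5 or above. None of the 10 genes was called at 4 weeks, where 0.0% of the 14861 genes tested were, or at 12 weeks, where 0.0% of 14666 were. At an unadjusted p under 0.05, the genes were 2 of 10 at 4 weeks, Tlr2 and Tlr4, both at a higher level in OA, beside 7.92% of all genes tested. At 12 weeks they were 3 of 10, with Tlr2 and Cd14 at a higher and Myd88 at a lower level in OA, beside 12.4% of all genes tested. Without OA replicates 1 and 3, the libraries rich in neutrophil markers, 1 of 10 remained at 4 weeks, Tlr2, beside 4.56% of all genes tested. edgeR's quasi-likelihood test gave the same numbers of genes at an unadjusted p under 0.05, 2 and 3. Over all genes tested it gave 1212 of 14861 at 4 weeks and 1833 of 14666 at 12 weeks. By DESeq2 with no minimum on the fold change, 0 of 10 passed an adjusted p of 0.05 at 4 weeks, where 0.247% of 16978 genes did, and 2 of 10 passed at 12 weeks, where 0.964% of 14101 did. These 2 were Tlr2 and Cd14. With the fold minimum kept, DESeq2 passed 0 of 10 at 12 weeks, where it passed 0.695% of genes. The libraries of OA and sham did not overlap for 0 of the 10 genes at 4 weeks (1.87% of all genes) and for 3 at 12 weeks (6.29%), which were Tlr2, Cd14 and Myd88. All levels below are normalized reads, that is reads divided by the size factor of their library, and all fold changes are log2 of OA over sham. Each sample is a pool of cells, so fewer cells of a type and less RNA per cell cannot be told apart.

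**Figure D1:**
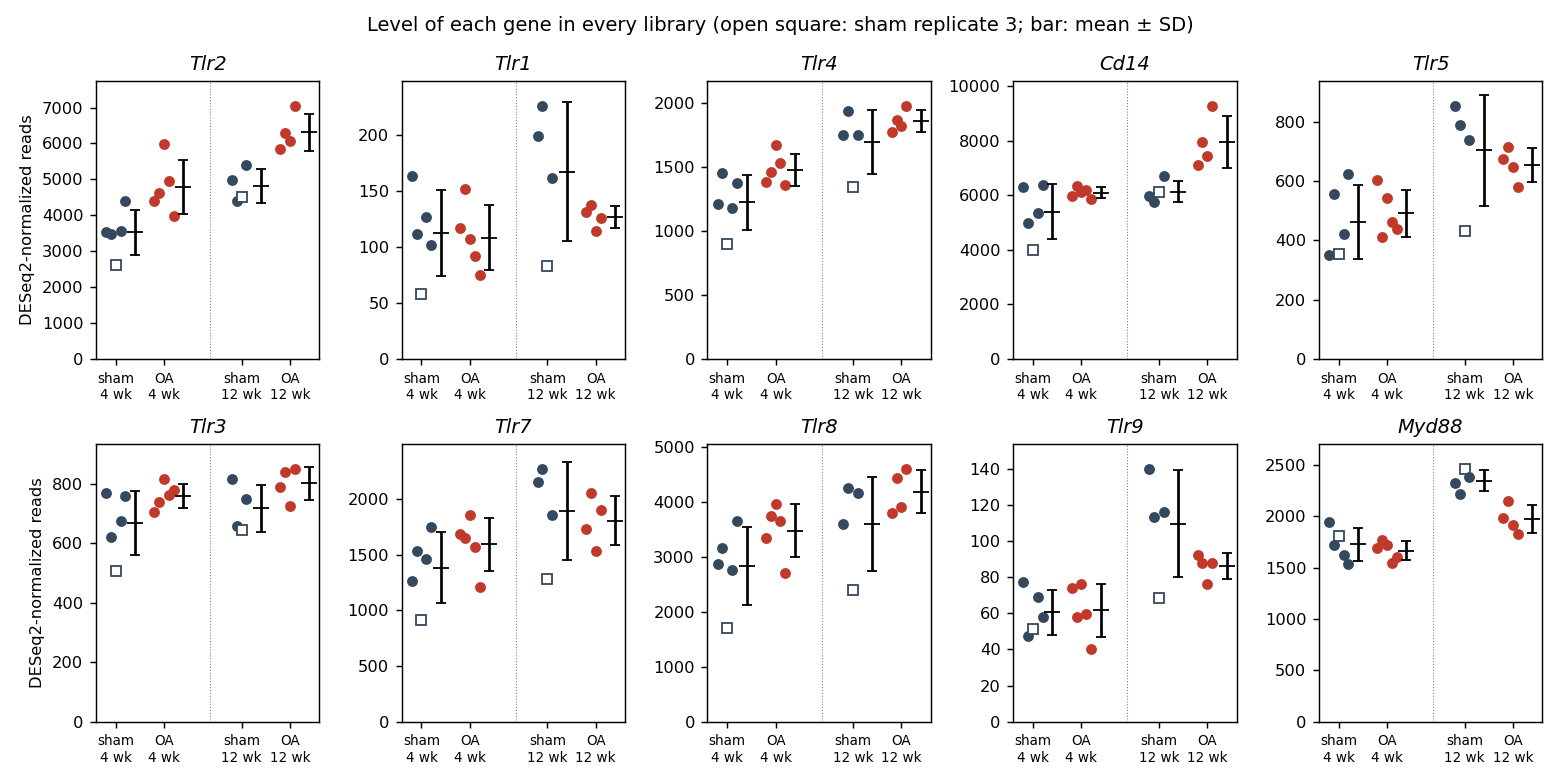
Normalized reads of the 10 genes (y axis, linear from 0) in each library, by surgery and week, with the mean and SD of each group beside the points. Open squares are sham replicate 3 of each week. At 12 weeks the 4 OA libraries lie above the 4 sham libraries for Tlr2 and Cd14, and below them for Myd88.

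Tlr2 (ENSRNOG00000009822) encodes a surface receptor for bacterial lipoproteins that pairs with Tlr1 or Tlr6. At 4 weeks its level was 4391, 4632, 5986, 4951 and 3993 in the 5 OA libraries and 3533, 3486, 2616, 3577 and 4407 in the 5 sham libraries. All 5 OA libraries were above the sham median and 3 of them above every sham library, the highest sham library being replicate 5. The means were 4791 ± 754 (SD, n = 5) and 3524 ± 634 (SD, n = 5), a log2 fold change of 0.45 (SE 0.14, 95% interval 0.148 to 0.750) that did not pass (limma adjusted p = 0.511). At 12 weeks the level was 5847, 6287, 6071 and 7035 in OA and 4978, 4386, 4505 and 5410 in sham. The groups did not overlap, OA being the higher, and the means of 6310 ± 516 (SD, n = 4) and 4820 ± 469 (SD, n = 4) differed by 30.9%. This gave a log2 fold change of 0.39 (SE 0.088, 95% interval 0.194 to 0.586), with an adjusted p of 0.265 in limma, 0.265 in edgeR and 0.0131 in DESeq2. Without sham replicate 3 the log2 fold change was 0.35 at 4 weeks and 0.36 at 12 weeks, and without OA replicates 1 and 3 it was 0.37 at 4 weeks (limma adjusted p = 0.949). The mean level of Tlr2 was thus higher in OA at both weeks, by less than the fold minimum, and at 12 weeks its adjusted p was under 0.05 in DESeq2 but not in limma or edgeR.

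Tlr1 (ENSRNOG00000038722) encodes the partner of Tlr2 for triacylated lipoproteins, and its sequence is close to that of Tlr6, so how the authors' counting divided reads between these genes is uncertain. At 4 weeks its level was 116.5, 151.5, 107.1, 91.38 and 74.83 in OA and 163.0, 111.5, 58.02, 126.6 and 101.3 in sham, with a log2 fold change of -0.01 (SE 0.25), or -0.23 (SE 0.20) without sham replicate 3. The OA libraries lay within the range of the sham libraries. At 12 weeks it was 130.9, 136.9, 113.7 and 125.5 in OA and 198.7, 225.2, 82.67 and 160.9 in sham. The OA libraries were below all sham libraries but replicate 3, which was the lowest of the 8. With all libraries it gave a log2 fold change of -0.30 (SE 0.26, limma adjusted p = 0.642). Without sham replicate 3 it was -0.61 (SE 0.13, limma adjusted p = 0.104, DESeq2 adjusted p = 0.0121). With each library left out in turn it was -0.61 to -0.13 (limma adjusted p of 0.104 to 0.858). The size of this difference thus rested on which libraries were used. Tlr6, the other partner of Tlr2, was at 369 ± 33 in the OA libraries and 342 ± 47 in the sham libraries (SD, n = 4 each) at 12 weeks, and at 313 ± 28 (SD, n = 5) and 294 ± 36 (SD, n = 5) at 4 weeks.

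Tlr4 (ENSRNOG00000010522) encodes the receptor for lipopolysaccharide. At 4 weeks its level was 1383, 1458, 1669, 1527 and 1360 in OA and 1208, 1454, 900.5, 1183 and 1376 in sham. The OA libraries all exceeded the sham median, and 2 of them lay below the highest sham library. OA over sham was 0.29 on the log2 scale (SE 0.12, 95% interval 0.0278 to 0.548, limma adjusted p = 0.607), 0.18 without sham replicate 3, and 0.26 without OA replicates 1 and 3 (limma adjusted p = 0.949). At 12 weeks the level was 1771, 1867, 1816 and 1973 in OA and 1749, 1937, 1344 and 1747 in sham, and the groups overlapped with replicate 3 again the lowest. The log2 fold change was 0.14 (SE 0.10, limma adjusted p = 0.569) and, without that library, 0.04 with a 95% interval of -0.113 to 0.186.

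Cd14 (ENSRNOG00000017819) encodes the protein that hands lipopolysaccharide to Tlr4 and also serves Tlr2. At 4 weeks its level was 5957, 6348, 6106, 6194 and 5867 in OA and 6313, 4988, 3980, 5346 and 6373 in sham. The OA libraries were close together, with an SD of 191 against 996 in sham, and none lay above the highest sham library. The log2 fold change was 0.19 (SE 0.12, limma adjusted p = 0.688), and 0.09 without sham replicate 3. At 12 weeks the level was 7099, 7959, 7433 and 9258 in OA and 5985, 5750, 6118 and 6688 in sham. The groups did not overlap, and the means of 7937 ± 949 (SD, n = 4) and 6135 ± 399 (SD, n = 4) differed by 29.4%. This was a log2 fold change of 0.37 (SE 0.093, 95% interval 0.160 to 0.573), with an adjusted p of 0.278 in limma, 0.273 in edgeR and 0.0282 in DESeq2. It was 0.37 without sham replicate 3 as well. Whether Cd14 and Tlr4 differed in their response was not tested, and their 95% intervals at 12 weeks overlapped (-0.0844 to 0.371 for Tlr4).

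Tlr5 (ENSRNOG00000022067) encodes the receptor for flagellin. At 4 weeks its level was 601.8, 411.6, 543.2, 461.1 and 438.1 in OA and 350.8, 556.4, 352.8, 421.9 and 624.2 in sham, with OA inside the sham range and a log2 fold change of 0.12 (SE 0.17), or 0.03 without sham replicate 3. At 12 weeks it was 674.5, 712.8, 646.7 and 580.2 in OA and 851.6, 789.8, 431.2 and 738.9 in sham. As for Tlr1, the OA libraries were below all sham libraries except replicate 3. The log2 fold change was -0.06 (SE 0.19, limma adjusted p = 0.902), and without that library -0.28 (SE 0.086, limma adjusted p = 0.243).

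**Figure D2:**
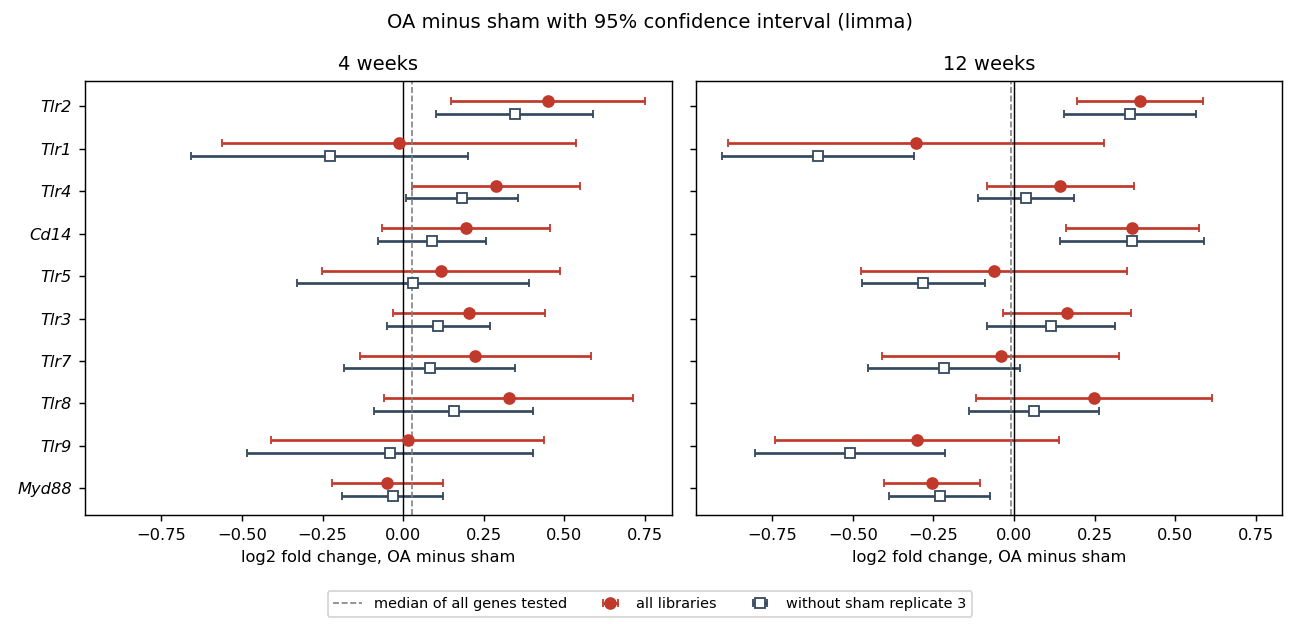
log2 fold change of OA over sham (x axis) for each gene at 4 and 12 weeks, with 95% intervals from limma. Filled circles use all libraries, open squares leave out sham replicate 3, and the dashed line is the median of all genes tested. At 12 weeks the intervals of Tlr2 and Cd14 lie above 0 and that of Myd88 below 0 with either set of libraries, whereas those of Tlr1, Tlr5 and Tlr9 leave 0 with sham replicate 3 left out.

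The endosomal receptors sense nucleic acids. Tlr3 (ENSRNOG00000021726), the receptor for double-stranded RNA, which signals through the adaptor Ticam1 instead of Myd88, was at 706.5, 739.4, 815.2, 761.8 and 779.8 in OA and 769.8, 623.3, 508.3, 675.1 and 759.5 in sham at 4 weeks. The OA libraries all exceeded the sham median, 2 of them exceeded every sham library, and the log2 fold change was 0.20 (SE 0.11, limma adjusted p = 0.649), or 0.11 without sham replicate 3. At 12 weeks Tlr3 was at 791.5, 840.5, 727.1 and 850.5 in OA and 816.1, 660.0, 644.9 and 750.4 in sham. The groups overlapped, with a log2 fold change of 0.16 (SE 0.090, limma adjusted p = 0.466). Without sham replicate 3, the lowest library, it was 0.12 (limma adjusted p = 0.600).

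Tlr7 (ENSRNOG00000004249) and Tlr8 (ENSRNOG00000045992) are neighbouring genes on the X chromosome that encode receptors for single-stranded RNA. At 4 weeks Tlr7 was at 1685, 1647, 1858, 1568 and 1210 in OA and 1262, 1532, 909.8, 1464 and 1750 in sham. Tlr8 was at 3333, 3733, 3953, 3660 and 2706 in OA and 2877, 3155, 1711, 2762 and 3653 in sham. For both genes OA replicate 3 was the highest OA library, OA replicate 5 the lowest OA library and sham replicate 3 the lowest of all. The log2 fold change was 0.22 (SE 0.17) for Tlr7 and 0.33 (SE 0.18) for Tlr8, with limma adjusted p = 0.726 and 0.657, and 0.08 and 0.16 without sham replicate 3. At 12 weeks Tlr7 was at 1733, 2052, 1535 and 1904 in OA and 2151, 2269, 1283 and 1858 in sham, with a log2 fold change of -0.04 (SE 0.17). Tlr8 was at 3803, 4424, 3902 and 4597 in OA and 3595, 4252, 2390 and 4162 in sham, with a log2 fold change of 0.25 (SE 0.17). The groups overlapped for both genes, and without sham replicate 3 the values were -0.22 for Tlr7 and 0.06 for Tlr8.

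Tlr9 (ENSRNOG00000048161), the receptor for unmethylated CpG DNA, was at 74.18, 58.12, 76.23, 59.82 and 40.13 in OA and 77.35, 47.50, 51.06, 69.15 and 58.00 in sham at 4 weeks. The ranges were alike, with a log2 fold change of 0.01 (SE 0.20), or -0.04 without sham replicate 3. At 12 weeks it was at 92.50, 87.83, 76.14 and 87.94 in OA and 139.8, 113.4, 68.68 and 116.1 in sham. The sham libraries were all above OA except replicate 3, the lowest of the 8. OA over sham was -0.30 on the log2 scale (SE 0.20, limma adjusted p = 0.539), and without that library -0.51 (SE 0.13, limma adjusted p = 0.156, DESeq2 adjusted p = 0.130).

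Myd88 (ENSRNOG00000013634) encodes the adaptor that links these receptors, and the interleukin-1 receptor, to the Irak kinases. At 4 weeks its level was 1697, 1767, 1717, 1542 and 1601 in OA and 1949, 1719, 1806, 1628 and 1535 in sham. The groups overlapped, with a log2 fold change of -0.05 (SE 0.079, limma adjusted p = 0.867), or -0.03 without sham replicate 3. At 12 weeks the level was 1987, 2151, 1912 and 1831 in OA and 2323, 2220, 2461 and 2385 in sham. Every OA library was below every sham library, and the mean of 1970 ± 136 (SD, n = 4) in OA was below the 2347 ± 102 (SD, n = 4) in sham. This was a log2 fold change of -0.25 (SE 0.067, 95% interval -0.402 to -0.106), with an adjusted p of 0.278 in limma, 0.282 in edgeR and 0.0682 in DESeq2. Sham replicate 3, the lowest library of its week for 7 of the other 9 genes, was the highest for Myd88, and the log2 fold change without it was -0.23 (DESeq2 adjusted p = 0.150).

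**Figure D3:**
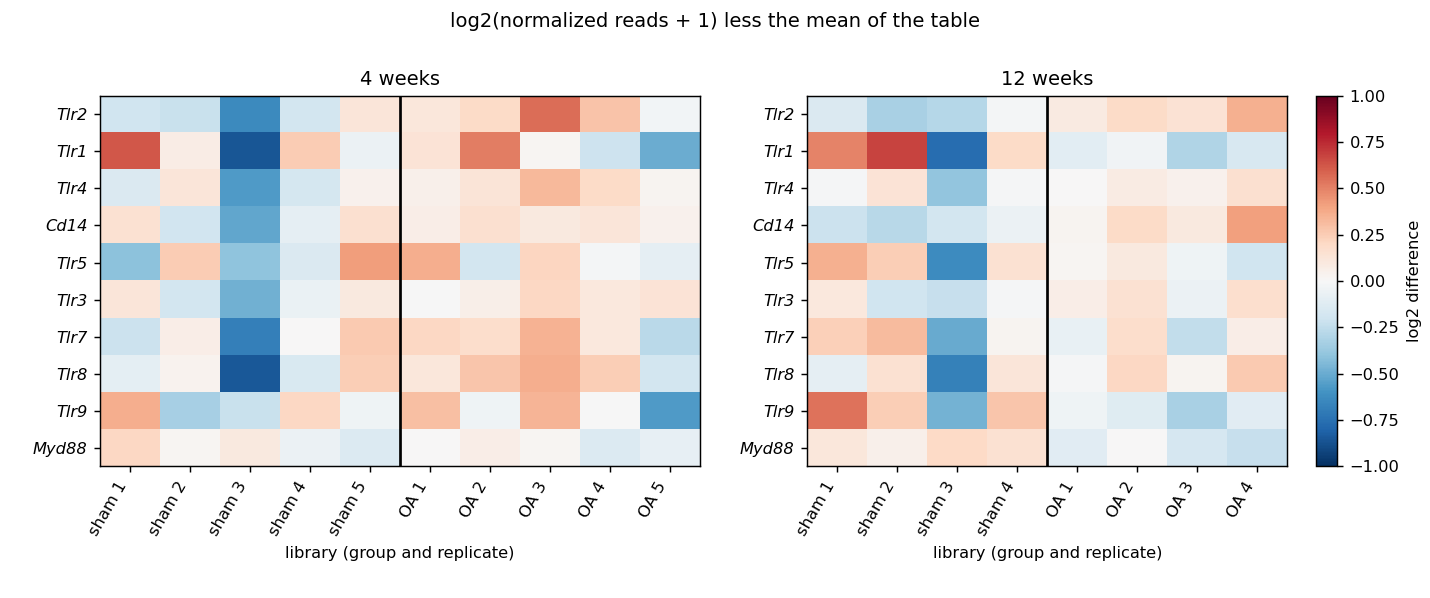
Difference of log2(normalized reads + 1) from the mean of all libraries of the week (color, log2 units) for each gene (rows) in each library (columns), with a line between sham and OA. Sham replicate 3 is the lowest library of its panel for 7 of the 10 genes at each week, and in the 12-week panel Tlr2 and Cd14 are high and Myd88 low in the 4 OA columns.

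Across the 10 genes, the median log2 fold change was 0.20 at 4 weeks, beside 0.03 over all genes tested, and 0.05 at 12 weeks, beside -0.01. Without sham replicate 3 it was 0.09 at 4 weeks, beside 0.0060, and -0.09 at 12 weeks, beside -0.02. At 4 weeks 8 were at a higher mean log2 level in OA and 2 at a lower one, and at 12 weeks 5 were higher and 5 lower. Leaving out sham replicate 3 at 12 weeks gave 6 genes with an unadjusted p under 0.05, where 12.9% of all genes had one, and 6 genes whose groups did not overlap, where 11.5% of all genes did not. Of the 6 genes whose groups did not overlap, Tlr2 and Cd14 were higher in OA and Tlr1, Tlr5, Tlr9 and Myd88 lower. DESeq2 then passed 3 of the 10, Tlr1 with Tlr2 and Cd14, where it passed 2.02% of 15089 genes. Each library was left out of limma in turn by plan, whereas the DESeq2 fit without sham replicate 3 was added after the values had been seen. Sham replicate 3 was singled out in part by its low values of these same genes. The shares over all genes are therefore no fair measure of the counts without it.

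Other cell types were checked beside the 3 genes that separated the groups at 12 weeks. The summed macrophage markers, 11 of 11 in the tables, overlapped between OA (148506 to 176732) and sham (121853 to 169018). The 10 neutrophil markers, genes of a cell type that also expresses Cd14 and Tlr2, summed to 1420 to 4451 normalized reads in OA and 1715 to 5916 in sham. The fibroblast markers, 7 of 8 in the tables, summed to 81834 to 107313 in OA and 54987 to 86349 in sham. Of these markers Thy1 had a lower mean in OA (606 against 866 in sham), and the others had a higher one. Endothelial markers, 5 of 7 in the tables, summed to 24144 to 31066 in OA and 27006 to 42168 in sham. The highest endothelial sum was in sham replicate 3, also the highest library for Myd88. Skeletal muscle markers (5 of 7 in the tables, none at 0 in any library) summed to 976 to 1632 in OA and 697 to 866 in sham. This was the only list of the 10 checked whose sums did not overlap. Among its genes only Acta1 separated the groups, with a mean of 670 in OA and 375 in sham. Without sham replicate 3 the fibroblast sums did not overlap either, with 54987 to 62964 in sham, the same libraries in which Tlr1, Tlr5 and Tlr9 separated. The part of these cells in the differences was not tested.

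The weeks were compared on CPM, the share of a library's reads after TMM scaling, from the reads recovered from both tables. Tlr2 had 468 ± 41 CPM (SD, n = 4) in OA at 12 weeks, 401 ± 62 (SD, n = 5) in OA at 4 weeks, 355 ± 34 (SD, n = 4) in sham at 12 weeks and 299 ± 48 (SD, n = 5) in sham at 4 weeks. Cd14 had 589 ± 74 CPM (SD, n = 4) in OA at 12 weeks, 511 ± 15 (SD, n = 5) in OA at 4 weeks, 458 ± 74 (SD, n = 5) in sham at 4 weeks and 452 ± 30 (SD, n = 4) in sham at 12 weeks. Each of these neighbours in the order overlapped. Myd88 had 173 ± 8.6 CPM (SD, n = 4) in sham at 12 weeks, 147 ± 15 (SD, n = 5) in sham at 4 weeks, 146 ± 9.3 (SD, n = 4) in OA at 12 weeks and 140 ± 7.4 (SD, n = 5) in OA at 4 weeks. The 12-week sham libraries were all above the 4-week sham libraries for Myd88, the only neighbours among the 10 genes that did not overlap. How often neighbours did not overlap among all genes is not given here, so this only describes the values. The week cannot be told apart from the number of rats in a pool.

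The difference between the weeks in the log2 fold change of OA over sham was tested in limma over all 18 libraries. None of the 10 genes had an unadjusted p under 0.05, where 3.18% of 14732 genes did, and the adjusted p was 0.955 to 0.997. The difference, 12 weeks less 4 weeks, was 0.20 for Cd14 with a 95% interval of -0.110 to 0.518, -0.17 for Myd88 with an interval of -0.390 to 0.0473, and -0.03 for Tlr2 with an interval of -0.384 to 0.332. For Tlr1 it was -0.26, with an interval of -1.05 to 0.539. Without sham replicate 3 of 4 weeks, 1 of the 10 genes had an unadjusted p under 0.05, where 3.53% of all genes did. This was Cd14, with a difference of 0.30 (95% interval 0.0490 to 0.559), but no gene passed after adjustment. The separation of Cd14 and Myd88 at 12 weeks but not at 4 weeks was therefore not shown to be a difference between the weeks.

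The other genes of the pathway were followed in 7 lists with 83 genes, of which 77 were in the tables and 73 were tested. None was called at either week. At an unadjusted p under 0.05 there were 7 at 4 weeks (9.59%, 6 higher and 1 lower in OA) and 14 at 12 weeks (19.2%, 7 higher and 7 lower), beside 7.92% and 12.4% of all genes tested, shares against which the counts of each list below also stand. The groups did not overlap for 0 of the 73 at 4 weeks and for 5 at 12 weeks (6.85%, near the 6.29% of all genes), 2 higher and 3 lower in OA. The median log2 fold change of the 73 was 0.04 at 4 weeks and -0.02 at 12 weeks.

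Among the proteins that help the receptors to bind or to mature, 3 of 8 tested had an unadjusted p under 0.05 at 4 weeks and 1 of 8 at 12 weeks, all at a higher level in OA. At 4 weeks the level of Lgmn, a protease that cleaves endosomal receptors, was 13785 ± 1106 in the OA libraries and 11181 ± 1241 in the sham libraries (SD, n = 5 each). Its log2 fold change was 0.31 (limma adjusted p = 0.563), or 0.23 without sham replicate 3. Unc93b1, which carries endosomal receptors to their compartment, was at 4151 ± 404 (SD, n = 5) and 3499 ± 356 (SD, n = 5), and Lbp, the lipopolysaccharide-binding protein, had a log2 fold change of 0.52 (limma adjusted p = 0.607). At 12 weeks Ctsk, the protease cathepsin K, was at 857 ± 151 in the OA libraries and 575 ± 59 in the sham libraries (SD, n = 4 each), with no overlap and a log2 fold change of 0.56 (limma adjusted p = 0.265, DESeq2 adjusted p = 0.0131). Hsp90b1, a chaperone of the receptors, had a log2 fold change of 0.20 (limma adjusted p = 0.430) at 12 weeks, or 0.11 without sham replicate 3. Ly96, the partner of Tlr4 in binding lipopolysaccharide, was not analysed here. Of the other Toll-like receptors, 3 were tested and 0 had an unadjusted p under 0.05 at either week. Tlr11 had a log2 fold change of -0.53 at 4 weeks (limma adjusted p = 0.639) and 0.12 at 12 weeks, or -0.63 and 0.0094 without sham replicate 3.

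Of the adaptors and proximal kinases, 1 of 15 had an unadjusted p under 0.05 at each week. Ticam2, the adaptor that bridges Tlr4 to Ticam1, had a log2 fold change of 0.39 at 4 weeks (limma adjusted p = 0.575) and 0.29 at 12 weeks, or 0.25 and 0.13 without sham replicate 3. Traf3, a ubiquitin ligase below these adaptors, was at 396 ± 29 in the OA libraries and 447 ± 9.98 in the sham libraries (SD, n = 4 each) at 12 weeks, without overlap (limma adjusted p = 0.378). Tab2, a partner of the kinase below Traf6, had a log2 fold change of 0.16 at 4 weeks, or 0.04 without sham replicate 3.

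Of 11 transcription factors, 0 had an unadjusted p under 0.05 at 4 weeks and 2 at 12 weeks, both NF-kappa-B subunits at a lower level in OA. Relb was at 424 ± 23 in the OA libraries and 519 ± 28 in the sham libraries (SD, n = 4 each) at 12 weeks, without overlap, with a log2 fold change of -0.29 (limma adjusted p = 0.269, DESeq2 adjusted p = 0.0755). Rela had a log2 fold change of -0.17 (limma adjusted p = 0.386). Irf7 and Irf5, the interferon regulatory factors with the smallest p at 4 weeks, had log2 fold changes of -0.41 and 0.14, or -0.32 and 0.06 without sham replicate 3. In this list 9 of the 11 log2 fold changes were negative at 12 weeks and 6 of 11 at 4 weeks.

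Of 12 negative regulators, 0 had an unadjusted p under 0.05 at 4 weeks and 3 at 12 weeks. Sarm1, an adaptor that holds back the Ticam1 branch, was at 90.0 ± 3.1 in the OA libraries and 115 ± 14 in the sham libraries (SD, n = 4 each) at 12 weeks, without overlap (log2 fold change -0.35, limma adjusted p = 0.320). Zc3h12a, a ribonuclease that degrades cytokine transcripts, had a log2 fold change of -0.39 (limma adjusted p = 0.378), and Dok3, an adaptor of myeloid cells, one of 0.38 (limma adjusted p = 0.372), or 0.25 without sham replicate 3.

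Of 11 endogenous ligands, matrix and intracellular proteins reported to engage the receptors, 2 had an unadjusted p under 0.05 at 4 weeks and 5 at 12 weeks, beside 7.92% and 12.4% of all genes, all at a higher level in OA. Lum, the matrix proteoglycan lumican, was at 1812 ± 582 in the OA libraries and 970 ± 326 in the sham libraries (SD, n = 5 each) at 4 weeks (log2 fold change 0.90, limma adjusted p = 0.403). At 12 weeks it was at 1976 ± 416 (SD, n = 4) and 906 ± 480 (SD, n = 4), with a log2 fold change of 1.23 (limma adjusted p = 0.265) and, without sham replicate 3, 1.55 (limma adjusted p = 0.00864). Tnc, the matrix protein tenascin-C, had log2 fold changes of 0.71 at 4 weeks and 0.52 at 12 weeks. Fn1, fibronectin, was at 47706 ± 5372 in the OA libraries and 32237 ± 8458 in the sham libraries (SD, n = 4 each) at 12 weeks, without overlap (log2 fold change 0.60, limma adjusted p = 0.318). Dcn and Vcan, the proteoglycans decorin and versican, had log2 fold changes of 0.50 and 0.49 at 12 weeks. Lum and Dcn were also in the fibroblast marker list, whose sums in OA and sham at 12 weeks are given above, and the part of fibroblasts in these values was not tested.

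Of 13 target genes tested, 1 had an unadjusted p under 0.05 at 4 weeks and 2 at 12 weeks, all at a lower level in OA. Cxcl10, an interferon-induced chemokine, was at 247 ± 25 in the OA libraries and 344 ± 78 in the sham libraries (SD, n = 5 each) at 4 weeks (log2 fold change -0.46, limma adjusted p = 0.511). At 12 weeks it was at 525 ± 89 (SD, n = 4) and 761 ± 123 (SD, n = 4), with a log2 fold change of -0.53 (limma adjusted p = 0.278, DESeq2 adjusted p = 0.0438). Ptgs2, the inducible cyclooxygenase, had a log2 fold change of -0.37 at 12 weeks (limma adjusted p = 0.378), and Il6, the cytokine with the next smallest p after Cxcl10 at 4 weeks, one of -0.28. Tnf was below the filter, with 1.08 to 8.58 normalized reads in OA and 2.32 to 8.29 in sham at 4 weeks, and 6.13 to 12.9 in OA and 0 to 5.09 in sham at 12 weeks.

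**Figure D4:**
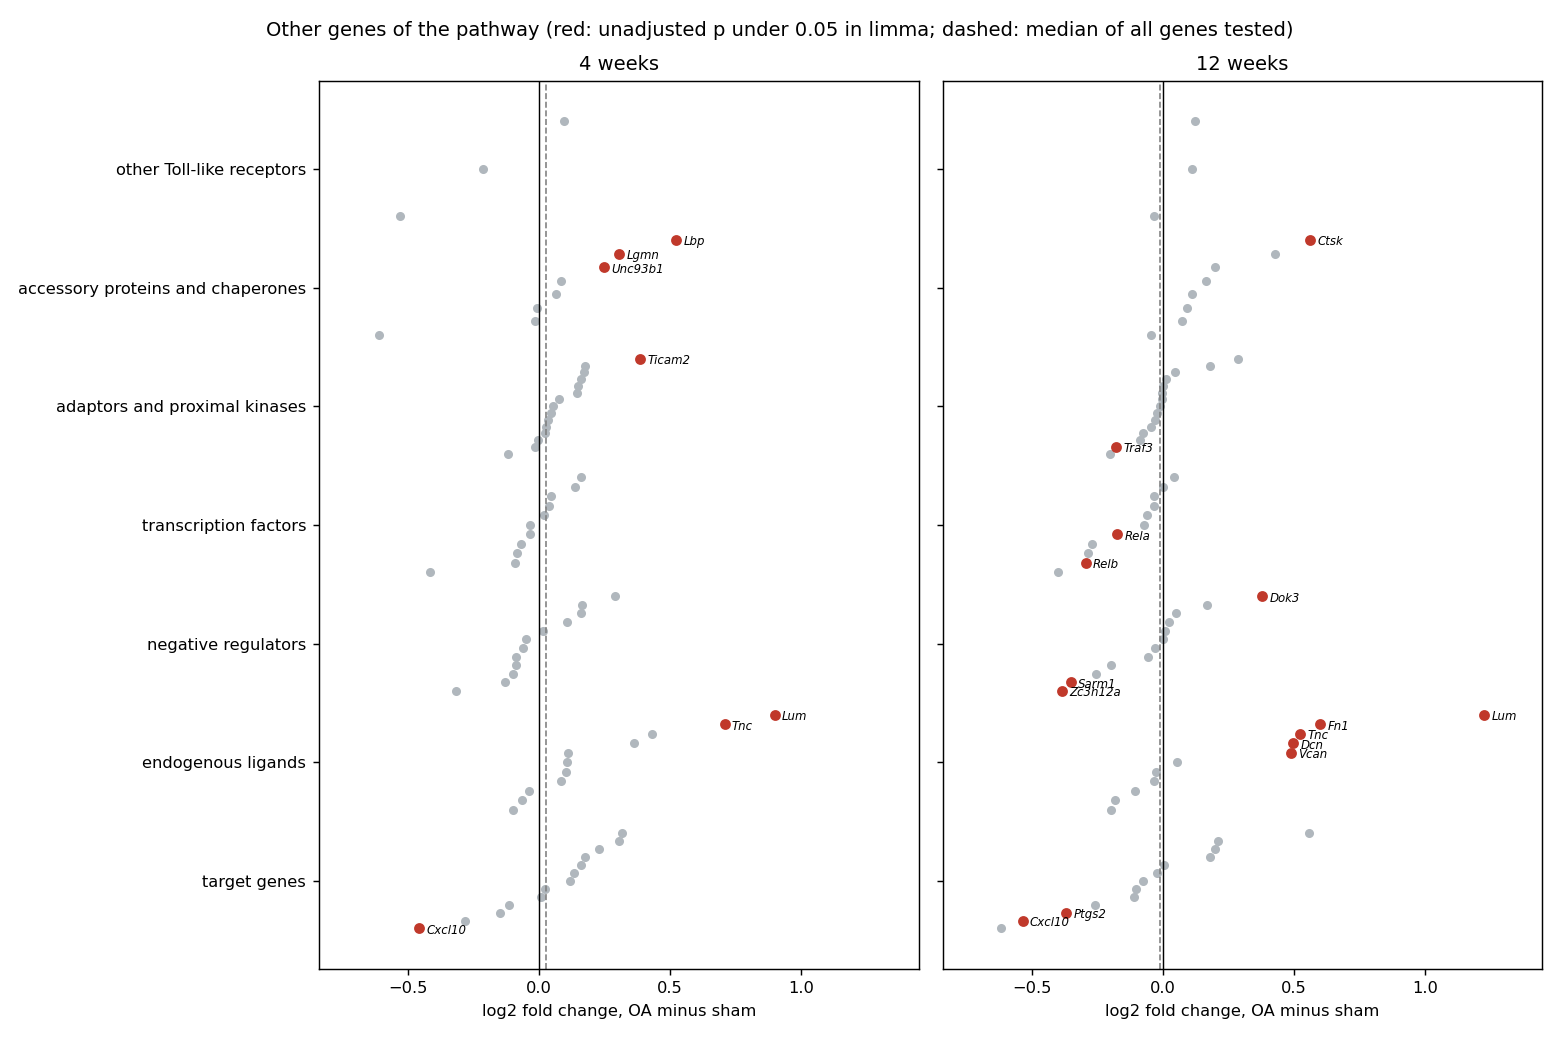
log2 fold change of OA over sham (x axis) for each of the 73 other pathway genes tested, by list, at 4 and 12 weeks. Red points with names had an unadjusted p under 0.05 in limma, and the dashed line is the median of all genes tested. Lum lies farthest to the right at both weeks, at 0.90 and 1.23.

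How the 10 genes varied together was described over the 18 libraries, each less the mean of its group, as Pearson's r of log2(normalized reads + 1). The points share library depth and cell makeup. They include, from each week, the sham library that was the lowest of its week for 7 of the 10 genes. Values of r without these libraries are not given here, so how far r rests on them was not tested. The share of positive pairs and the median r among all genes are not given either, so the counts below only describe the values. Of 45 pairs, 38 had a positive r, with a median of 0.535. Tlr4 with Tlr8 had the highest r, 0.934, and Tlr7 with Tlr8 had 0.917. Myd88 had a negative r with 7 of the 9 others, the lowest being -0.400 with Tlr5. Among the 12773 genes compared, the one most like each gene was Nfam1 for Tlr1 (r = 0.938), Map3k5 for Tlr2 (0.903), Hk2 for Tlr3 (0.931), Rnft1 for Tlr4 (0.927), Rhobtb1 for Tlr5 (0.872), Rgs18 for Tlr7 (0.928), Pid1 for Tlr8 (0.968), Pygl for Tlr9 (0.882) and Trps1 for Cd14 (0.916). For Myd88 the highest r was 0.782, with Marcksl1, the lowest such value of the 10. The genes compared left out the 10 genes and the 7 lists, and Tlr4 had a higher r with Tlr8 than with Rnft1.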

How the data were processed

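The authors checked raw read quality with fastp 0.20.0, aligned reads with STAR 2.7.6a to the rat genome Rnor_6.0, removed duplicate alignments with Sambamba, counted the rest per gene with featureCounts 2.0.0 and normalized them with DESeq2 1.24.0, each week apart. Whether featureCounts used strand is not given in the sources used here. The authors deposited normalized reads, a signal equal to the read count over the size factor of the library. All deposited values (100.0%, within 0.01) were whole reads times 1 factor per library, so read counts, which are counts after duplicate removal, were recovered. The deposited tables also hold the authors' own fold changes and p-values, which were not used. Of the 18 libraries, 0 were duplicates of another by a chi-square test of their counts.

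OA and sham were compared within each week with limma 3.58.1 (R 4.3.3), with a mean-variance trend, on log2(normalized reads + 1), for genes with a mean of at least 10, with Benjamini-Hochberg adjustment. The difference between weeks was fitted on log2 CPM of the recovered reads (TMM scaling, prior count 2). edgeR 4.0.16 and DESeq2 1.42.0 on the recovered reads were alternatives, with other pseudocounts, filters and scaling, a replicate block and each library left out in turn. The fits were tested on simulated data with planted changes larger than those of the 10 genes. That test does not show whether changes of the size seen here would be found. DESeq2 with no fold minimum, the same without sham replicate 3, and limma without OA replicates 1 and 3 at 4 weeks were added after the values had been seen. Members, lists and tests were chosen with earlier results of these data known.

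All 10 genes were named with every value, and of each pathway list every called gene and the 2 with the smallest p at each week, plus those with an unadjusted p under 0.05 and Tnf, named after their values were seen. The gene most like each of the 10 was the one with the highest r among named genes tested at both weeks. The 10 genes and the 7 lists were left out of this search. Library totals were 4662344 to 18080503 reads. The level under which a gene cannot be told from 0, 3 reads, equalled 2.06 to 6.96 normalized reads. All 10 genes were above it in every library. Their fewest reads were in sham replicate 3 at 4 weeks, 25 for Tlr1 and 22 for Tlr9, and the counting error there was not assessed. p-values measure the spread between pools. RefSeq matched 10 of the 10 genes to a promoter of the build GRCr8, used for sequence only. Transcript lengths were not used, so levels are not compared between genes.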

Additional observations from a re-analysis of the deposited data

How the results depend on the processing

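No gene among the 10 was called under any other scaling, filter, pseudocount or tool with the fold minimum kept, or with any library left out (0 at each week and for the difference between weeks), nor with a replicate block (0). Same-numbered OA and sham libraries were pools of different rats. Their deviations from the group means had an r of -0.131 to 0.080 at 4 weeks and -0.026 to 0.298 at 12 weeks. The value of 0.298, for the replicates numbered 3, was the highest of any OA and sham pair at 12 weeks. With the block 1 of all genes was called at 4 weeks and 0 at 12 weeks. DESeq2 with no fold minimum passed 2 of the 10 at 12 weeks, and 3 without sham replicate 3. Of the pathway genes, DESeq2 passed 2 at 12 weeks, with or without a fold minimum (0.695% and 0.964% of all genes), and 6 with no fold minimum and without sham replicate 3 (2.02% of all genes), namely Ctsk, Dcn, Fn1, Lum and Tnc higher and Cxcl10 lower in OA. In limma, leaving out single libraries gave 0 to 1 pathway genes. The 1 was Lum without sham replicate 3 at 12 weeks, where 81 of all 14663 genes tested were called. The cause of these shifts was not tested. Directions turned only for values of at most 0.12 in size. The difference between weeks was 0.012 for Tlr2 and 0.032 for Tlr3 with a mean of at least 50, and 0.0069 for Tlr3 in edgeR. Tlr9 at 4 weeks was -0.0061 with TMM scaling and -0.015 in DESeq2 without sham replicate 3. Without OA replicates 1 and 3 at 4 weeks, Tlr5 was -0.039 and Tlr9 -0.20. With each library left out, the log2 fold change was -0.23 to 0.14 for Tlr1 and -0.070 to 0.16 for Tlr9 at 4 weeks, and -0.28 to 0.046 for Tlr5 and -0.22 to 0.058 for Tlr7 at 12 weeks. The difference between weeks was -0.11 to 0.072 for Tlr2, -0.053 to 0.083 for Tlr3 and -0.23 to 0.12 for Tlr8. The limma adjusted p of Tlr2, Cd14 and Myd88 at 12 weeks stayed above 0.05 under every alternative within limma.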
